A study of Mus musculus with 16 samples.

Results

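The genes described here encode the secreted and membrane-bound metalloproteinases of the *Adamts* and *Mmp* families, the ADAMTS-like proteins and the tissue inhibitors of metalloproteinases (TIMPs). They were chosen by gene name, as every gene named *Adamts*, *Adamtsl*, *Mmp* or *Timp* with a number. This gave 51 genes with 74 of the 55681 probes on the microarray, among 34821 gene names. Where a gene had several probes, the one with the highest mean log2 signal over the 16 microarrays was used, and the other 23 probes served for comparison. RNA came from cardiomyocytes (CMs) of wild-type CD1 mice. ERBB-2+ cells of hearts at embryonic day (E) 15.5 were sorted by low or high surface level of integrin alpha 6 (ITGA6) into EL and EH CMs. Cells of hearts at postnatal day (P) 2 were depleted of non-myocytes with magnetic beads before the same sort into PL and PH CMs. Each group held 4 samples from separate sorting experiments, each a pool of 20 to 30 embryonic or 15 neonatal hearts with at least 50000 sorted cells, and each was measured on a microarray of its own from 10 ng of RNA. The study used the level of ITGA6 to separate CM subtypes of the atria and ventricles, and no mutation, transgene or drug distinguished the groups.

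As background, ADAMTS enzymes are secreted zinc proteases with thrombospondin repeats that anchor them in the matrix. Several of them cleave versican and related proteoglycans of the early cardiac jelly, others trim the ends of procollagens, and others act on cartilage oligomeric matrix protein or associate with fibrillin microfibrils. ADAMTS-like proteins share the accessory domains but lack the protease domain, so that they are matrix proteins and not proteases. Matrix metalloproteinases (MMPs) include collagenases, gelatinases, stromelysins and membrane-type enzymes, and TIMPs bind and block their active site. In the heart these proteins take part in trabeculation, valve formation and the turnover of matrix after birth.

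Signals are quantile-normalized signal intensities on the linear scale, given in the order of the sample numbers (2, 3, 6 and 8 for EL and EH, 2, 3, 4 and 5 for PL and PH). Fold-changes are differences of mean log2 signals with the standard error (SE) of a limma fit over all probes, and p-values were adjusted over all 55681 probes. A gene was called when its adjusted p was at most 0.05 and its fitted fold-change at least 3. Detection is the scanner software's mark for a spot well above background. Where a probe had this mark on 0 of 4 microarrays in the dimmer group, the fold-change is a lower bound, written as "at least", which sets the brighter group against the lowest detectable signal of each microarray. The adjusted p beside such a bound belongs to the fitted difference and does not test the bound. Signals of different genes come from different probes, so that no level of 1 gene is set against that of another, and the sums over lists and their brightest genes only describe the lists. EL and EH shared 2 slides, whereas all P2 samples lay on 1 further slide, so that a difference between stages and a difference between slides cannot be told apart. In such sorted populations, fewer cells of a type and less RNA per cell cannot be told apart either.

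The CM label was checked with 8 markers, *Tnnt2*, *Tnni3*, *Actn2*, *Myh6*, *Nkx2-5*, *Ttn*, *Actc1* and *Tnnc1*, all of which were well above background on all 16 microarrays. Genes that mark other cell types were also measured. The summed signal of 12 fibroblast and mesenchymal genes, of which *Col1a2* was the brightest, was 23588, 13699, 20097 and 15321 in EL and 10989, 5979, 11789 and 10707 in EH. It was 1683, 804, 554 and 697 in PL and 687, 816, 895 and 615 in PH. The summed signal of 10 endothelial and endocardial genes was 1235, 1232, 1406 and 1417 in EL but 1923, 1827, 7161 and 6786 in EH, so that EH samples 6 and 8 stood apart. The brightest of these genes was *Kdr* in EL and *Fabp4* in EH samples 2, 6 and 8. EH samples 2 and 3 also had 10 and 9 of the 10 genes well above background, against 4 or 5 in EL. Their *Plvap* signal was 253 and 222, against 13.7 to 32.7 in EL, so that endothelial signal was not confined to EH samples 6 and 8. EH sample 6 also held the highest sum of 10 leukocyte genes, 15920, against 4453 to 5454 in the other EH samples. This sum is no measure of leukocytes at P2, where it was 9855, 4756, 12167 and 6683 in PL with *Itgam* as the brightest gene, while *Ptprc*, *Cd14*, *C1qa* and *Tyrobp* were not well above background. The summed signal of 5 erythroid genes, of which *Hba-a1* was the brightest, was 3649, 4315, 30453 and 4196 in EL and 17626, 5334, 34021 and 7346 in EH, highest in sample 6 of both fractions, and 245 to 884 at P2. Results that rest on EH are therefore also given without EH samples 6 and 8 where this changed a call, though this leaves the endothelial signal of EH samples 2 and 3 in place.

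Detection divided the families. The probe in use was well above background on all 16 microarrays for 17 of the 51 genes, on all 4 microarrays of at least 1 group for 24 genes, and on 0 of 16 for 23 genes. Of these 23 genes, *Adamts4* and *Mmp27* had another probe that passed on 1 microarray, which left 21 genes without a detected probe. All 4 collagenases (*Mmp1a*, *Mmp1b*, *Mmp8* and *Mmp13*) were among the 23, as were the gelatinase *Mmp9*, the stromelysins *Mmp3* and *Mmp10*, 7 of the 8 MMPs of the mixed group, *Timp4* and *Adamtsl3*. The RefSeq annotation (GRCm38.p6) places 10 *Mmp* genes in a row on chromosome 9, with 3 other listed genes among them, and the probes in use for these 10 genes were well above background on 0 of 16 microarrays. In contrast, 4 of 7 proteoglycan-cleaving ADAMTS genes, 3 of 5 ADAMTS-like genes and 3 of 4 TIMP genes were detected on all 16. Detection on all microarrays of at least 1 group selects genes that are high somewhere, so counts below are given over all 51 genes.

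**Figure D1:**
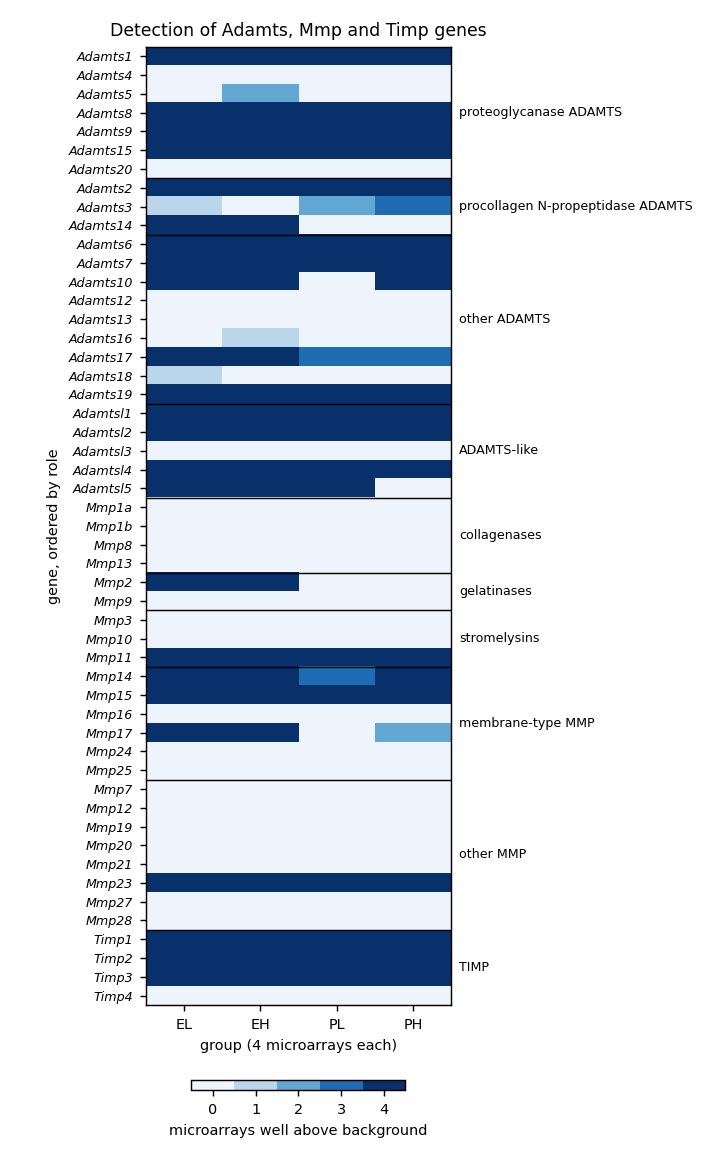
Number of microarrays (0 to 4, colour) on which each of the 51 genes was well above background in EL, EH, PL and PH, with genes in rows ordered by role. Dark rows mark the 17 genes detected on all 16 microarrays, and pale rows the 23 genes whose probe was detected on 0 of 16, among them all collagenases.

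Fold-changes depend on what the probes bind. The 60-base probes below are a selection, not a full list, from genes with a fraction difference by adjusted p in at least 1 stage. Each sequence shown has at least 1 reading frame without a stop codon. They are shown 5′ to 3′ on the strand of the gene with their mm9 positions, all in lower case since no part is singled out. For *Adamtsl5*, *Mmp14* and *Adamts10* it is the probe in use, and for *Adamts8* and *Timp2* the other probe.
Adamts8 (chr9:30751050-30751109, plus strand): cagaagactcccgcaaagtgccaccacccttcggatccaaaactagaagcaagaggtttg
Adamts10 (chr17:33686520-33687435, plus strand): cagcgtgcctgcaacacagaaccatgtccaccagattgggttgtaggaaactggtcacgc
Adamtsl5 (chr10:79804077-79804136, minus strand): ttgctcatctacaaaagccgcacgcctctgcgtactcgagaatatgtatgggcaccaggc
Mmp14 (chr14:55058775-55058834, plus strand): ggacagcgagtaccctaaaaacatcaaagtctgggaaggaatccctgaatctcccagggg
Timp2 (chr11:118171964-118178741, minus strand): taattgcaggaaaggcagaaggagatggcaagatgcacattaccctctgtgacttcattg
The positions of the *Adamts10* and *Timp2* probes span more than 60 bases of the genome, so that both probes cross a splice junction and bind spliced RNA. The *Adamts8* probe shown lies on the same strand upstream of the brighter *Adamts8* probe in use, which is at chr9:30770384-30770443.

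At E15.5, 3 of 51 genes were called higher in EH than in EL (5.88%, against 1.17% of all probes), namely *Adamts19*, *Adamts7* and *Adamtsl2*. Only *Adamtsl5* was called lower (1.96%, against 0.454% of all probes). With normexp background correction 0 genes passed the 3-fold limit in either direction at E15.5, while these 4 genes had an adjusted p below 0.05. At P2, 8 genes were called higher in PH than in PL (15.7%, against 1.73%): *Adamts8*, *Adamts15*, *Adamts19*, *Adamts10*, *Adamtsl1*, *Adamtsl2*, *Mmp14* and *Timp3*. The call of *Adamts10* rests on its fitted value, since its lower bound was under 3-fold. With dim signals raised to the detection level 7 genes were called higher, and with normexp background correction 5. Again *Adamtsl5* was the gene called lower (1.96%, against 0.916%). By adjusted p alone, 10 genes were higher and 1 lower in EH (4.27% and 3.83% of all probes), and 12 were higher and 2 lower in PH (6.15% and 5.41%). The 4 EH samples all lay above the 4 EL samples for 11 genes and all below for 3 (7.02% and 9.08% of all probes), and PH lay above PL for 12 and below for 3 (6.54% and 6.27%). The median log2 fold-change of the 24 detected genes was 0.41 for EH against EL and 0.46 for PH against PL, beside -0.05 and -0.02 over 22250 detected probes. Over all 51 genes the medians were -0.01 and 0.02.

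Among the proteases that cleave proteoglycans, *Adamts8*, which encodes an enzyme with aggrecan-cleaving activity, differed most between the fractions at P2, whereas at E15.5 *Adamts1* did. The signal of *Adamts8* was 416, 281, 277 and 271 for EL and 723, 619, 547 and 469 for EH at E15.5, and 206, 115, 190.5 and 166 for PL and 3619, 4220, 6730 and 5151 for PH at P2. PH thus stood far above all other groups, which lay within a range of 115 to 723, and neither stage showed an overlap between fractions. The log2 fold-change was 4.86 ± 0.23 (SE) for PH against PL (adjusted p = 8.33e-09), a 29.0-fold difference. For EH against EL it was 0.93 ± 0.23 (adjusted p = 0.0209), which missed the 3-fold limit and reached adjusted p-values of 0.00733 to 0.0676 over the alternatives. The difference between these fold-changes, termed stage dependence here, was 3.93 ± 0.32 (adjusted p = 1.99e-05). PL was also below EL, with a log2 fold-change of -0.89 ± 0.23 (adjusted p = 0.0125). The other *Adamts8* probe, whose sequence is shown above, gave 22.0, 11.8, 34.3 and 7.87 for PL and 206, 227, 316 and 231 for PH. This probe was higher in PH by 3.90 ± 0.36 on the log2 scale (adjusted p = 4.35e-06). At E15.5 it was not well above background in EL and just missed the threshold, at least 2.01-fold higher in EH (adjusted p = 0.0503). Its fitted stage dependence was 2.66 ± 0.50 (adjusted p = 0.00933), smaller than that of the probe in use. PH was well above PL with either probe.

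*Adamts15*, which encodes another proteoglycan-cleaving enzyme of this clade, is the direct neighbour of *Adamts8* in the annotation, with 0 genes listed between them and 63.3 kb between the probes in use. Its signal was 254, 163, 233 and 199 for EL and 177, 138, 110 and 118 for EH at E15.5, and 172, 111, 193 and 96.3 for PL and 1202, 886, 1624 and 989 for PH at P2. As for *Adamts8*, the PH samples stood apart from those of the other groups. The log2 fold-change was 3.06 ± 0.25 for PH against PL (adjusted p = 1.62e-06) and the stage dependence 3.71 ± 0.36 (adjusted p = 6.34e-05). At E15.5, where EL and EH overlapped, it was -0.65 ± 0.25 (adjusted p = 0.169), and with the sample number as a block the same difference had an adjusted p of 0.0332, within 0.0332 to 0.638 over the alternatives. Both neighbours were also higher in PH than in EH, *Adamts8* 8.24-fold (adjusted p = 6.93e-07) and *Adamts15* 8.58-fold (adjusted p = 1.38e-06).

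*Adamts1*, which encodes the versican-cleaving enzyme known for its role in trabeculation, followed another order. Its signal was 2126, 1624, 1989 and 2058 for EL and 5032, 3798, 4703 and 5011 for EH at E15.5, and 934, 1048, 1101 and 1215 for PL and 1150, 1180, 999 and 1290 for PH at P2. EH was above every other sample, and the P2 fractions overlapped. The log2 fold-change was 1.25 ± 0.12 for EH against EL (adjusted p = 1.50e-05) and 0.10 ± 0.12 for PH against PL (adjusted p = 0.757), with a stage dependence of -1.14 ± 0.17 (adjusted p = 0.00184). From EH to PH it fell by 2.00 ± 0.12 on the log2 scale, 4.01-fold (adjusted p = 1.23e-07). *Adamts9*, which encodes a further versican-cleaving enzyme, had signals of 294 to 465 over all 16 samples and passed no test, with an adjusted p of 0.139 or more in each of the 5 comparisons. *Adamts5* was well above background on 2 EH microarrays only, and *Adamts20* on 0.

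**Figure D2:**
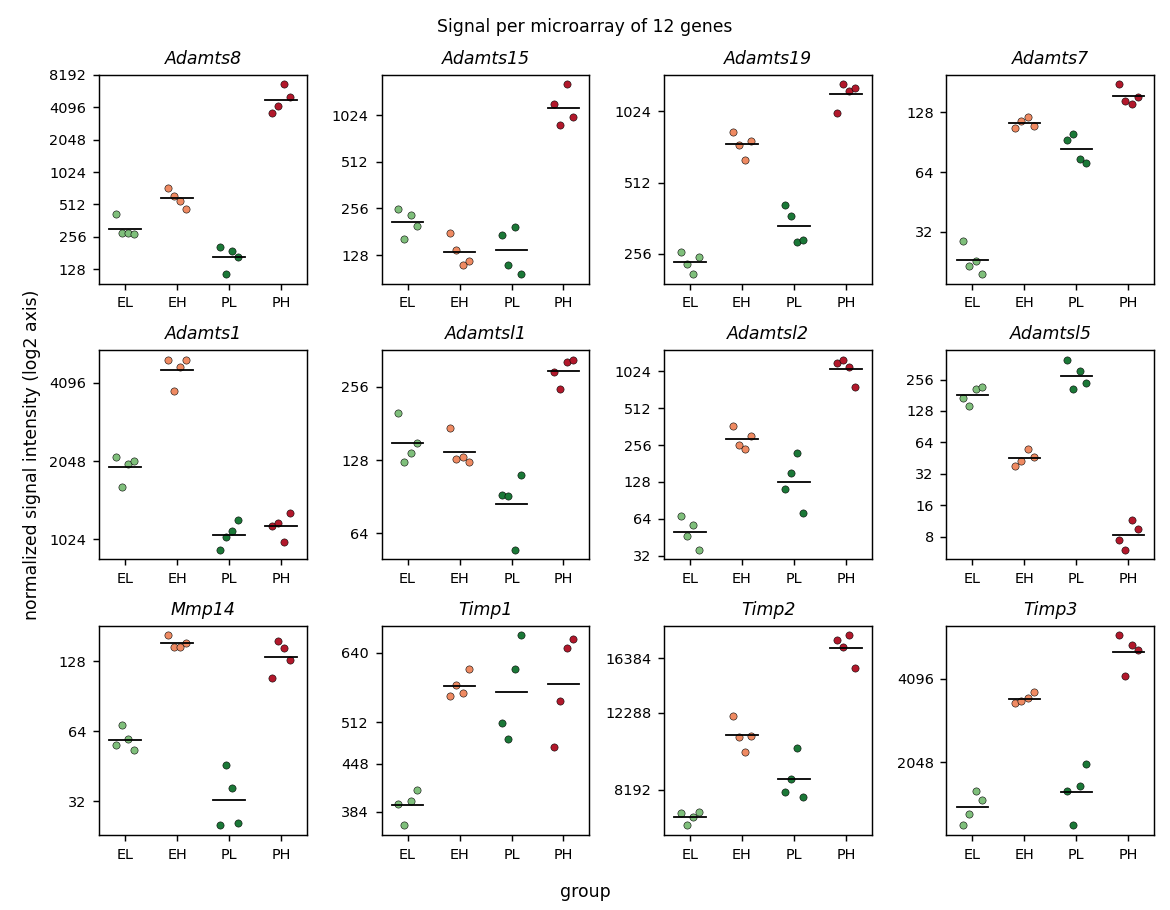
Normalized signal intensity (log2 axis) of 12 genes on each microarray (points) with the mean of the log2 values (line) in EL, EH, PL and PH. PH alone is high for *Adamts8* and *Adamts15*, and *Adamtsl1* is highest in PH and lowest in PL. Both ITGA6high groups are high for *Adamts19*, *Adamtsl2*, *Mmp14*, *Timp2* and *Timp3*, and *Adamtsl5* runs the opposite way.

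The remaining ADAMTS proteases included genes that were higher in the ITGA6high fraction of both stages. *Adamts19* had a signal of 261, 232, 210 and 248 for EL and 841, 738, 638 and 770 for EH at E15.5, and 414, 369, 287 and 293 for PL and 1012, 1335, 1245 and 1282 for PH at P2. In both stages the ITGA6high samples lay above the ITGA6low samples without overlap. The log2 fold-changes were 1.65 ± 0.13 at E15.5 (adjusted p = 3.04e-06) and 1.85 ± 0.13 at P2 (adjusted p = 4.40e-07), and the stage dependence was 0.20 ± 0.19 (adjusted p = 0.769). *Adamts7*, which encodes an enzyme that cleaves cartilage oligomeric matrix protein, had a signal of 28.9, 21.7, 22.9 and 19.6 for EL and 107, 116, 122 and 109 for EH at E15.5, and 93.4, 99.8, 74.6 and 71.0 for PL and 178, 146, 142 and 153 for PH at P2. EL was the low group here. *Adamts7* was higher in EH by 2.30 ± 0.13 (adjusted p = 2.09e-07) and in PH by 0.88 ± 0.13 (adjusted p = 0.000392), with a stage dependence of -1.42 ± 0.19 (adjusted p = 0.000739). It was also the single gene called higher in PL than in EL (1.96%, against 1.6% of all probes), by 1.86 ± 0.13 (adjusted p = 2.99e-07).

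*Adamts10*, which encodes a protein linked to fibrillin microfibrils, had a signal of 32.0, 22.4, 19.7 and 20.1 for EL and 40.5, 41.4, 35.7 and 41.3 for EH at E15.5, and 5.48, 11.3, 3.41 and 7.76 for PL and 35.1, 35.7, 25.8 and 24.4 for PH at P2. In PL it was not well above background on any microarray. It was at least 1.54-fold higher in PH than in PL (adjusted p = 0.000120), and the fold-change of 0.78 ± 0.29 for EH against EL had an adjusted p of 0.149, within 0.0117 to 0.332 over the alternatives, with all EH samples above all EL samples. Its other probe was well above background on 0 of 16 microarrays, and with the median over both probes the P2 call was lost (adjusted p = 0.135, within 2.37e-05 to 0.135 over the alternatives). *Adamts6* was detected on all microarrays and differed between the fractions by less than its error, with 113, 161, 137 and 110 in EL and 115, 117, 112 and 95.2 in EH. *Adamts12* and *Adamts13* were well above background on 0 microarrays.

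The ADAMTS-like genes, which encode matrix proteins without a protease domain, included the genes called in both stages in opposite directions. *Adamtsl2*, whose product binds fibrillin and a latent growth factor binding protein, had a signal of 68.1, 46.8, 56.6 and 35.8 for EL and 367, 254, 238 and 304 for EH at E15.5, and 112, 151, 221 and 71.8 for PL and 1193, 1273, 1116 and 766 for PH at P2. In each stage the fractions were separate. The log2 fold-change was 2.51 ± 0.31 at E15.5 (adjusted p = 0.000112) and 3.06 ± 0.31 at P2 (adjusted p = 9.72e-06), and it was higher in PH than in EH by 1.90 ± 0.31 (adjusted p = 0.000496). *Adamtsl5* had a signal of 172, 143, 207 and 216 for EL and 38.0, 42.6, 54.7 and 46.7 for EH at E15.5, and 397, 208, 307 and 235 for PL and 7.50, 5.98, 11.5 and 9.42 for PH at P2. Here both ITGA6low groups were high, and PH was not well above background. *Adamtsl5* was 4.04-fold lower in EH than in EL (log2 fold-change -2.01 ± 0.23, adjusted p = 6.98e-05) and at least 17.3-fold lower in PH than in PL (adjusted p = 7.09e-09). The fitted stage dependence was -3.04 ± 0.33 (adjusted p = 0.000153). Its other probe, with 57.8, 42.1, 53.6 and 53.0 in EL and 13.1 to 17.6 in EH, gave -1.74 ± 0.33 at E15.5 (adjusted p = 0.00421) and was at least 4.48-fold lower in PH than in PL (adjusted p = 2.61e-05).

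*Adamtsl1* was highest in PH and lowest in PL, with a signal of 199, 126, 137 and 150 for EL and 174, 129, 131 and 125 for EH at E15.5, and 91.7, 90.9, 54.6 and 111 for PL and 295, 252, 325 and 332 for PH at P2. PH was 2.16-fold above EH (adjusted p = 0.00146), below the 3-fold limit, and the log2 fold-change of PL against EL was -0.84 ± 0.20 (adjusted p = 0.00915). Between fractions, the log2 fold-change of *Adamtsl1* reached 1.83 ± 0.20 for PH against PL (adjusted p = 2.79e-05) and -0.12 ± 0.20 for EH against EL (adjusted p = 0.854), and the stage dependence was 1.95 ± 0.29 (adjusted p = 0.00184). These values rest on the brightest of 3 probes, since the other 2 were well above background on 4 and 1 of 16 microarrays. With the median over the 3 probes, the P2 difference was 1.27 on the log2 scale (adjusted p = 0.251, the highest over the alternatives). *Adamtsl4*, which encodes a microfibril-associated protein, had a signal of 138, 145, 156 and 108 for EL and 319, 297, 283 and 235 for EH at E15.5, and 416, 380, 417 and 344 for PL and 366, 538, 400 and 456 for PH at P2. EL was again the low group, and the log2 fold-change was 1.06 ± 0.14 at E15.5 (adjusted p = 0.000246) and 0.17 ± 0.14 at P2 (adjusted p = 0.616).

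Sequence upstream of the start is shown for *Adamtsl2* and *Adamtsl5*, 2 of the 3 genes called in both stages, the 250 bases before the start 5′ to 3′ on the strand of the gene (RefSeq, GRCm38.p6). Capitals mark TATAAA, the TATA box, in *Adamtsl2* and AGGTCA, a nuclear receptor half-site, in *Adamtsl5*.
Adamtsl2 (chr2:27079129-27079378, plus strand): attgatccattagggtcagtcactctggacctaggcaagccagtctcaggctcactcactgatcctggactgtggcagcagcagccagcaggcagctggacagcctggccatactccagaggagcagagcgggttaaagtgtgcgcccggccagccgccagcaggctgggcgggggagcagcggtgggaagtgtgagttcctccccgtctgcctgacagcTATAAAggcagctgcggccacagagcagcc
Adamtsl5 (chr10:80348449-80348698, minus strand): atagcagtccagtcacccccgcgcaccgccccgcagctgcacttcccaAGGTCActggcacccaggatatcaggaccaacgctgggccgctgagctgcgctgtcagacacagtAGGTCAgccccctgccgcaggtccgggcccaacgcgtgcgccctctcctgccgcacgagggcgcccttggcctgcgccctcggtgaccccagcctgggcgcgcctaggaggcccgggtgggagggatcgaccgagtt
The TATA box of *Adamtsl2* begins 30 bases before the start, and the matches of *Adamtsl5* begin 202 and 137 bases before it. Of the 51 genes, 36 had a promoter in the table. With either strand counted, TATAAA was found before 10 of these 36 genes and AGGTCA before 5. The TEAD motif GGAATG was found before 2 genes, the E-box CACGTG before 2 and the T-box half-site AGGTGT before 0. AGATAA, the letters that the zinc finger family including the cardiac factor *Gata4* recognizes, was found before 3 genes. Over all 32851 windows of this length in the table, the shares with a match were 12.4% for TATAAA, 14.0% for AGGTCA, 12.6% for GGAATG, 9.99% for AGATAA, 6.02% for CACGTG and 11.8% for AGGTGT. Apart from *Adamtsl2*, *Adamts1* was the detected gene with TATAAA, which began 32 bases before its start. The other 8 genes with TATAAA (*Mmp1a*, *Mmp1b*, *Mmp3*, *Mmp7*, *Mmp10*, *Mmp13*, *Mmp20* and *Mmp21*) were well above background on 0 of 16 microarrays. These matches are descriptions of the letters, and binding was not measured.

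Of the 23 MMP genes, *Mmp14* differed most between the fractions. It encodes the membrane-type 1 MMP, a collagenase of the cell surface that also activates pro-MMP2 together with TIMP2. Its signal was 55.7, 68.4, 59.3 and 53.3 for EL and 166, 148, 148 and 153 for EH at E15.5, and 25.1, 45.9, 36.6 and 25.9 for PL and 109, 156, 146 and 130 for PH at P2. Both ITGA6high groups lay above both ITGA6low groups. On the log2 scale the difference was 1.38 ± 0.17 at E15.5 (adjusted p = 0.000151), below the 3-fold limit, and 2.05 ± 0.17 at P2 (adjusted p = 2.21e-06), where 3 of 4 PL microarrays were well above background. With normexp background correction the P2 difference of *Mmp14* was 1.00, below the 3-fold limit. *Mmp11*, which encodes stromelysin 3, had a signal of 427 to 481 in EL, 443 to 560 in EH, 479 to 605 in PL and 837 to 949 in PH, with a log2 fold-change of 0.71 ± 0.09 for PH against PL (adjusted p = 7.38e-05). *Mmp15*, which encodes another membrane-type MMP, had a signal of 525 to 745 over all 16 samples and differed between the fractions by -0.19 ± 0.06 at E15.5 (adjusted p = 0.110) and 0.19 ± 0.06 at P2 (adjusted p = 0.0878). *Mmp17*, a further membrane-type gene, had a signal of 41.5, 50.3, 70.9 and 58.2 in EL and 35.1, 35.4, 35.3 and 28.7 in EH, all EH samples being lower (-0.69 ± 0.33, adjusted p = 0.289, within 0.0201 to 0.592 over the alternatives). At P2 it had a signal of 26.3, 16.4, 24.2 and 19.2 in PH, of which 2 microarrays were well above background, and 11.1, 13.8, 11.3 and 3.82 in PL, of which 0 were. It was at least 1.09-fold higher in PH (adjusted p = 0.0239, within 0.00832 to 0.310 over the alternatives). The gelatinase *Mmp2* differed between EH and EL by 0.54 ± 0.35 (adjusted p = 0.495) and was not well above background in either fraction at P2.

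The TIMP genes encode the inhibitors, and *Timp3*, whose product binds to the matrix and also blocks ADAMTS enzymes, was higher in the ITGA6high fraction of both stages. Its signal was 1213, 1334, 1612 and 1496 for EL and 3352, 3412, 3485 and 3684 for EH at E15.5, and 1608, 1210, 1686 and 2017 for PL and 5896, 4206, 5452 and 5196 for PH at P2. There was no overlap between fractions, whereas EL and PL overlapped. The log2 fold-change was 1.31 ± 0.14 at E15.5 (adjusted p = 5.00e-05), 2.48-fold and thus not called, and 1.68 ± 0.14 at P2 (adjusted p = 2.45e-06). The P2 difference of *Timp3* was close to the 3-fold limit and fell below it with scaling to the 75th percentile (1.54) and without PL sample 3 (1.55). *Timp2* had a signal of 7244, 6778, 7070 and 7286 for EL and 12096, 10819, 9979 and 10871 for EH at E15.5, and 8088, 8667, 10204 and 7860 for PL and 18020, 17415, 18525 and 15579 for PH at P2. Its fold-changes were smaller, 0.62 ± 0.09 at E15.5 (adjusted p = 0.000403) and 1.00 ± 0.09 at P2 (adjusted p = 3.00e-06), and its other probe gave 0.92 ± 0.12 (adjusted p = 0.000192) and 0.96 ± 0.12 (adjusted p = 7.44e-05). *Timp1* had a signal of 394, 368, 398 and 412 for EL and 556, 576, 562 and 607 for EH at E15.5, and 511, 485, 607 and 677 for PL and 473, 548, 651 and 668 for PH at P2. EL was below all other samples, and the P2 fractions overlapped. *Timp1* had a log2 fold-change of 0.55 ± 0.12 at E15.5 (adjusted p = 0.00926) and 0.04 ± 0.12 at P2 (adjusted p = 1.00). Without EH samples 6 and 8, the E15.5 difference of *Timp1* had an adjusted p of 0.0854, within 0.00230 to 0.0854 over the alternatives. *Timp4* was not well above background on any microarray.

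**Figure D3:**
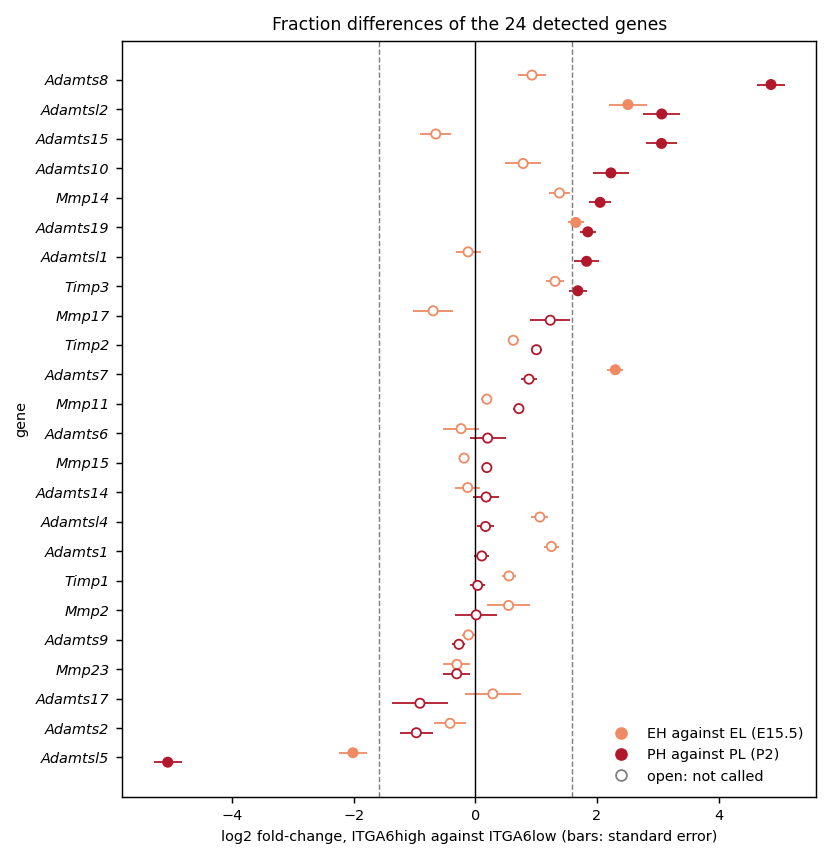
Log2 fold-change of the ITGA6high against the ITGA6low fraction at E15.5 and at P2 for the 24 genes detected on all microarrays of at least 1 group, with limma's standard error as bars, filled points for called genes and dashed lines at 3-fold. *Adamts8* (4.86) and *Adamtsl5* (-5.06, a fitted value whose PH signal was not well above background) mark the ends at P2, and *Adamts7* is the called gene with the larger difference at E15.5.

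The fraction difference depended on the stage for 10 of 51 genes by adjusted p alone, 6 with a higher signed log2 fold-change at P2 than at E15.5 and 4 with a lower one (1.81% and 1.35% of all probes). Of these, 4 and 1 passed the 3-fold limit (7.84% and 1.96%, against 0.602% of all probes in each direction). Those higher at P2 were *Adamts8*, *Adamts15*, *Adamtsl1* and, below the detection limit in PL, *Mmp17*, and the lower one was *Adamtsl5*, whose difference was negative at both stages and whose PH signal was not well above background. With normexp background correction, 2 genes passed the 3-fold limit in the higher and 0 in the lower direction, and with the median over its probes *Adamtsl1* had an adjusted p of 0.878, the highest over the alternatives. *Mmp17* lost this call with the sample number as a block (adjusted p = 0.0665, within 0.00447 to 0.147 over the alternatives), and so did *Mmp15* its p-value (0.0979, within 0.0252 to 0.319). *Timp1* gained one (adjusted p = 0.0281, within 0.0281 to 0.524). *Adamts19*, *Adamtsl2*, *Timp2*, *Timp3* and *Mmp14* passed the test within each stage but had a stage dependence of 0.20 ± 0.19, 0.55 ± 0.43, 0.38 ± 0.12, 0.37 ± 0.20 and 0.67 ± 0.25, with adjusted p-values of 0.154 to 0.769. That of *Timp2* was 0.0349 without PL sample 4, and that of *Mmp14* 0.0467 without PL sample 3, in each case the lowest over the alternatives.

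By adjusted p alone, 6 genes were higher and 13 lower in PL than in EL (9.7% and 10% of all probes), and for PH against EH the counts were 11 and 7 (9.12% and 8.37%). With the 3-fold limit, 5 genes were called lower in PL than in EL (9.80%, against 2.15% of all probes) and 6 lower in PH than in EH (11.8%, against 2.1%), and 3 genes were called higher in PH than in EH (5.88%, against 1.3%). *Mmp2*, *Adamts14* and *Mmp23* were called lower in both fractions. The calls of *Mmp2*, *Mmp17* and *Adamts10* in PL against EL and of *Adamtsl5* in PH against EH rest on fitted values, since their lower bounds were under 3-fold. With dim signals raised to the detection level, 2 genes were called lower in PL and 5 in PH, and with normexp background correction 0 and 1. *Mmp2*, which encodes gelatinase A, a protease made mainly by stromal cells, had a signal of 37.6, 41.8, 45.9 and 32.7 for EL and 39.5, 38.6, 101 and 69.3 for EH at E15.5, and 9.46, 4.03, 4.07 and 4.27 for PL and 5.36, 4.06, 4.03 and 7.81 for PH at P2. Every E15.5 sample was well above background and no P2 sample was. *Mmp2* was at least 2.03-fold lower in PL than in EL (adjusted p = 2.86e-05) and at least 3.57-fold lower in PH than in EH (adjusted p = 8.57e-06). The highest values of *Mmp2* were those of EH samples 6 and 8. *Adamts14*, a procollagen N-propeptidase, had a signal of 84.5, 85.4, 92.4 and 116 in EL, 75.7, 73.9, 93.4 and 104 in EH, and 9.74 to 20.9 at P2, where it was not well above background. It was at least 4.85-fold lower in PL (adjusted p = 3.88e-07) and at least 5.24-fold lower in PH (adjusted p = 1.42e-06) than at E15.5 in the same fraction.

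*Mmp23*, which encodes a small membrane-anchored MMP, had a signal of 191, 176, 255 and 258 for EL and 157, 138, 181 and 240 for EH at E15.5, and 67.3, 61.5, 37.0 and 40.4 for PL and 34.5, 37.9, 44.3 and 45.5 for PH at P2. It was detected on all microarrays and was 4.35-fold lower at P2 in both fractions (adjusted p = 9.64e-06 for PL against EL and 1.26e-05 for PH against EH). *Adamts17* had a signal of 187, 178, 174 and 152 in EH and 9.20, 38.4, 27.7 and 49.6 in PH, a fall of 2.70 ± 0.46 on the log2 scale (adjusted p = 0.000735), with 3 of 4 PH microarrays well above background. *Mmp17* was at least 2.80-fold lower in PL than in EL (adjusted p = 5.20e-05), and *Adamts10* at least 1.19-fold (adjusted p = 0.000346). The *Adamts10* difference missed the threshold with dim signals raised to the detection level and with the median over its probes (adjusted p = 0.239, the highest over the alternatives). *Adamts2*, the main procollagen N-propeptidase, had a signal of 137, 86.6, 125 and 91.2 for EL and 92.1, 51.4, 110 and 81.5 for EH at E15.5, and 66.7, 59.1, 50.8 and 63.3 for PL and 18.8, 30.1, 43.0 and 35.2 for PH at P2. Its log2 fold-change was -0.85 ± 0.27 for PL against EL (adjusted p = 0.0366), -1.41 ± 0.27 for PH against EH (adjusted p = 0.00175) and -0.97 ± 0.27 for PH against PL (adjusted p = 0.0285), all below the 3-fold limit.

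These genes moved in the same direction as most marker genes of stromal cells and, from EH to PH, of endothelial cells and leukocytes. Of 12 fibroblast and mesenchymal genes, 9 were called lower in PL than in EL and 10 lower in PH than in EH, where 2.15% and 2.1% of all probes were called lower. The medians of this list were -3.86 and -3.06 on the log2 scale beside 0.01 and 0.03 over all probes. Some calls of this and the next lists rest on fitted values, since their lower bounds were under 3-fold. Examples are *Pdgfra* (1.67), *Ddr2* (1.24) and *Bnc1* (1.22) in PL, and *Pdgfra* (1.59), *Tcf21* (1.07) and *Tek* (1.15) in PH. Of 8 epicardial and mesothelial genes, 8 were called lower in PL than in EL and 6 lower in PH than in EH. Of 10 endothelial genes, 1 was called lower in PL than in EL and 6 lower in PH than in EH (median -2.78). Of 10 leukocyte genes, 2 and 8 were called lower, with a median of -2.99 in PH against EH. Of the 8 CM markers, 6 were higher in PL than in EL and 3 higher in PH than in EH by adjusted p (9.7% and 9.12% of all probes). *Pdgfra*, a defining fibroblast gene, had a signal of 29.4 to 35.8 in EL and 22.1 to 27.7 in EH and was not well above background at P2, and *Wt1*, a defining epicardial gene, had 285 to 445 in EL, 170.1 to 374 in EH and 23.4 to 41.6 in PH and was not well above background in PL. Both *Wt1* and *Krt19*, another gene of the epicardial list, were called higher in PH than in PL (adjusted p = 0.000237 and 3.79e-05). Their lower bounds were 1.43-fold and 3.13-fold, so that the call of *Wt1* rests on its fitted value. Of the fibroblast list, *Ddr2* (at least 1.22-fold) was called higher and *Postn* (at least 3.16-fold) lower in PH than in PL. E15.5 cells were sorted for ERBB-2, a gate meant to remove non-myocytes, and P2 cells were depleted of non-myocytes with beads. The part of other cells in the stage differences was not tested.

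**Figure D4:**
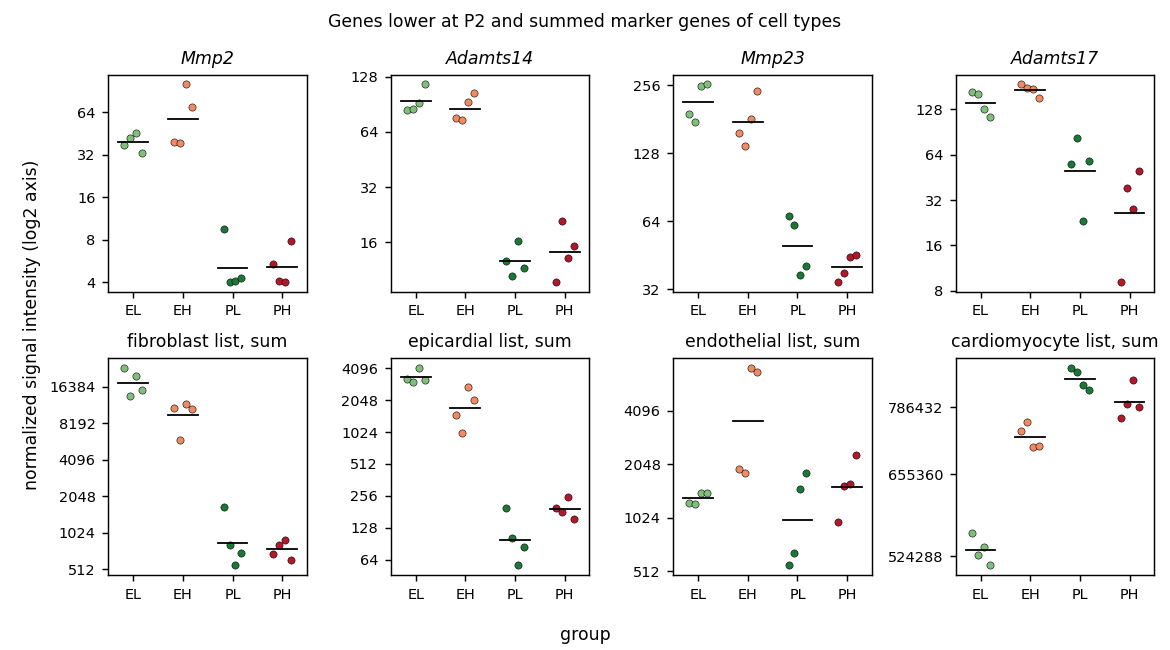
Normalized signal intensity (log2 axis) of 4 protease genes that were lower at P2 (upper row) and the summed signals of 4 lists of marker genes (lower row) on each microarray in EL, EH, PL and PH, with lines at the mean of the log2 values. The fibroblast sum was 5979 to 23588 at E15.5 and 554 to 1683 at P2, and the endothelial sum was high in EH samples 6 and 8.

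The fraction differences at E15.5 were set beside the same lists. The 12 fibroblast genes had a median log2 fold-change of -0.38 for EH against EL, and 4 of them had an unadjusted p under 0.05 (*Col1a1*, *Col1a2* and *Dcn* lower, *Thy1* higher in EH) and 0 an adjusted p of at most 0.05 in limma. Of the 8 epicardial genes, *Bnc1* was called lower in EH and *Tbx18* was lower by adjusted p alone (0.00993), with a median of -1.36. Of 7 smooth muscle and pericyte genes, *Rgs5* was called higher and *Cspg4* lower. By contrast with the fibroblast and epicardial lists, 5 of 10 endothelial genes (*Cdh5*, *Tie1*, *Emcn*, *Plvap* and *Fabp4*) and 2 of 10 leukocyte genes (*Cd68* and *Lyz2*) were called higher in EH. The medians of these 2 lists for PH against PL were 0.11 and -0.11. *Lyz2* was well above background in EH samples 6 and 8 alone, and in no EL sample. *Cdh5*, a defining endothelial gene, had a signal of 77.3, 46.0, 391 and 333 in EH, 3.89 to 14.4 in EL and 4.61 to 8.72 at P2, where it was not well above background. Without EH samples 6 and 8, 3 of the genes described here were called higher and 1 lower in EH. The samples kept, EH 2 and 3, had 10 and 9 of the 10 endothelial genes well above background. The part of endothelial cells in the E15.5 differences was not tested.

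The E15.5 samples lay on 2 slides. Slide 1 held EL samples 2 and 8 with EH samples 2, 3 and 8, and slide 2 held EL samples 3 and 6 with EH sample 6 alone. Within slide 1 and slide 2, the log2 fold-changes of EH against EL were 1.62 and 1.53 for *Adamts19*, 2.22 and 2.45 for *Adamts7*, 2.63 and 2.21 for *Adamtsl2*, and -2.19 and -1.65 for *Adamtsl5*. They were 0.82 and 0.97 for *Adamts8*, 1.13 and 1.39 for *Adamts1*, 1.51 and 1.21 for *Mmp14*, and 1.37 and 1.25 for *Timp3*. They were 0.63 and 0.53 for *Timp2*, 0.52 and 0.55 for *Timp1*, and 1.21 and 0.91 for *Adamtsl4*. Genes without a difference past the threshold at E15.5 included *Mmp2* with 0.43 and 1.21, *Adamts2* with -0.62 and 0.08, *Adamts14* with -0.25 and 0.07, and *Mmp11* with 0.20 and 0.02. The value of slide 2 rests on EH sample 6, which had high endothelial, leukocyte and erythroid sums. With the slide as a block, 3 genes were called higher and 1 lower in EH.

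The partners of these proteases were counted from lists of substrates, inhibitors and activators. Of 24 matrix substrates, 12 were called lower in PL than in EL and 11 lower in PH than in EH, with medians of -1.47 and -1.28, where 2.15% and 2.1% of all probes were called. Among them were *Col1a1*, *Col3a1*, *Dcn* and *Lum*, which are also in the fibroblast list above. *Fn1*, which encodes fibronectin, fell by 6.13 ± 0.25 in the ITGA6low fraction (adjusted p = 3.02e-09) and by 5.19 ± 0.25 in the ITGA6high fraction (adjusted p = 1.85e-08). *Vcan*, which encodes the ADAMTS substrate versican, had a signal of 602, 446, 463 and 405 for EL and 373, 418, 461 and 489 for EH at E15.5, and 113, 127, 144 and 102 for PL and 31.9, 3.60, 32.9 and 24.7 for PH at P2. All PH samples lay below all PL samples, and PH sample 3, the lowest, was not well above background. *Ncan*, *Fbn1*, *Nid2* and *Thbs1* were the 4 substrates called higher in PH than in PL (1.73% of all probes). *Vcan* was the 1 called lower (0.916%). *Ncan* and *Comp* were the 2 called higher in EH than in EL (1.17%). *Ncan*, *Fbn1* and *Thbs1* were not well above background on any PL microarray, nor *Comp* on any EL microarray. Their calls at P2 and that of *Comp* at E15.5 thus used fitted values. *Nid2*, which encodes the basement membrane protein nidogen 2, had a signal of 153, 230, 111 and 111 in PL and 484, 626, 696 and 596 in PH (2.04 ± 0.19, adjusted p = 5.98e-06).

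Of 12 activators and cofactors, *Fbln1* and *Sdc4* were called higher in EH (1.17% of all probes) and *Fbln1* and *Lrp1* in PH (1.73%). *Pcsk5*, *Pcsk6*, *Plat* and *Lrp1* were called lower in PL than in EL (2.15% of all probes). *Pcsk6*, *Plat* and *Plaur* were called lower in PH than in EH (2.1%), and these 3 were not well above background at P2. *Fbln1*, which encodes fibulin 1, a cofactor of ADAMTS1 in the cleavage of proteoglycans, had a signal of 374, 356, 341 and 363 for EL and 2112, 1906, 1716 and 2153 for EH at E15.5, and 120, 237, 315 and 132 for PL and 3872, 6301, 6773 and 4726 for PH at P2. It was higher by 2.45 ± 0.27 at E15.5 (adjusted p = 4.23e-05) and by 4.84 ± 0.27 at P2 (adjusted p = 3.62e-08), with a stage dependence of 2.38 ± 0.38 (adjusted p = 0.00285). *Lrp1*, which encodes a receptor that takes up TIMP3 and ADAMTS enzymes, was higher in PH by 1.72 ± 0.25 (adjusted p = 0.000338). *Furin*, which encodes the convertase that activates pro-ADAMTS enzymes and MMP14, had signals of 620 to 728 in EL, 832 to 967 in EH, 889 to 1258 in PL and 1308 to 1523 in PH, and its fraction differences of 0.41 ± 0.10 (adjusted p = 0.0271) and 0.46 ± 0.10 (adjusted p = 0.00883) were below 3-fold.

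Of 10 other inhibitors, *Spock2*, which encodes the proteoglycan testican 2, was the gene called higher in both ITGA6high fractions, by 1.72 ± 0.36 at E15.5 (adjusted p = 0.00844) and 3.73 ± 0.36 at P2 (adjusted p = 8.13e-06). *Cst3*, which encodes the cysteine protease inhibitor cystatin C, had a signal of 7947 to 9131 in EL, 17212 to 18056 in EH, 14582 to 17066 in PL and 25959 to 34757 in PH, with fraction differences of 1.04 ± 0.09 (adjusted p = 4.35e-06) and 0.99 ± 0.09 (adjusted p = 3.28e-06). *Reck*, which encodes a membrane-anchored inhibitor of MMPs, was well above background on all E15.5 microarrays and on 0 at P2, at least 1.21-fold lower in PL (adjusted p = 0.00124) and at least 1.75-fold lower in PH (adjusted p = 0.00703).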

How the data were processed

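RNA of 4 groups with 4 samples each was measured on 16 one-color Agilent microarrays. Per the file headers, Feature Extraction 10.7.3.1 produced the deposited signal intensities, in which the background had been subtracted and the dimmest spots replaced by surrogate values. The authors also deposited quantile-normalized log2 values per probe. These were used to choose the brightest probe of each gene and as an alternative, and over the genes described here they differed from the values computed here by at most 0.162 on the log2 scale. Probe positions are those of the files (mm9). Columns of the authors' own comparisons were not used.

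Outlier spots, as marked in the files, were dropped. Spots were then averaged per probe (55681 probes), quantile normalized and transformed to log2, as in the study. A mean per group was fitted to all 16 microarrays with limma 3.58.1 in R 4.3.3, with Benjamini-Hochberg adjustment over all probes. For a call, 2 limits had to be met, 0.05 for the adjusted p and 3-fold for the change. The fit was tested on simulated data. The number of microarrays, 4 per group, limits the precision, and 0 spots were saturated. Sequences and motifs were read with Python 3.11.15 and pandas 2.3.3, and figures drawn with matplotlib 3.10.9. Of the 51 accessions, 49 were listed by RefSeq, all with the same symbol, and those of *Adamtsl5* and *Mmp27* were not listed.

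Named were the genes *Adamts8*, *Timp3* and *Mmp2*, every TIMP, every gene called between fractions whose brighter group was well above background on all microarrays, the 6 largest called differences between stages, and the 3 genes with the highest mean of each family. Further genes (*Adamts2*, *Adamts5*, *Adamts6*, *Adamts9* and those of the partner and marker lists) were named after their values were seen. Members and lists were chosen with earlier results of these data known. Lists of markers of neural and Schwann cells, erythroid cells, and smooth muscle cells and pericytes were also counted. Of their 6, 5 and 7 genes, 1, 2 and 4 were called lower in PL than in EL and 1, 3 and 4 lower in PH than in EH (2.15% and 2.1% of all probes). Between fractions, calls were made in the smooth muscle list alone, 1 higher and 1 lower in EH and 2 higher and 1 lower in PH.

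To see whether samples were paired by number, deviations from the group means were correlated. EL and EH samples that shared a number gave r = 0.255, 0.189, 0.45 and 0.379, all above 0.1, and PL and PH samples 0.375, 0.176, -0.0305 and 0.542. Same-numbered E15.5 samples thus deviated together, whereas pairing at P2 was not settled. The values given are from the fit without pairs, and those with the sample number as a block are printed where they changed a call. Of 120 pairs of microarrays, 0 held identical values. Alternatives changed the scaling, the background correction, the treatment of dim signals, the rule for several probes, the test, the block and the samples, and leaving out EH samples 6 and 8 together was added after their marker signals were seen. The result for 1 gene of the inhibitor list is not reported here.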

Additional observations from a re-analysis of the deposited data

Results flagged for a closer look

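The difference between the fractions differed between the stages, by the test of that difference in limma, for 10 of the named genes. The signed log2 fold-change at P2 minus that at E15.5 was 3.93 for *Adamts8*, 3.71 for *Adamts15*, 1.95 for *Adamtsl1*, 1.92 for *Mmp17*, 0.53 for *Mmp11* and 0.37 for *Mmp15*. It was -1.14 for *Adamts1*, -1.42 for *Adamts7*, -0.89 for *Adamtsl4* and -3.04 for *Adamtsl5*. The values of *Mmp17* and *Adamtsl5* are fitted and no bounds, since *Mmp17* in PL and *Adamtsl5* in PH were not well above background.

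In 7 of 88 groups of 4 samples, 1 sample lay far from the others by Dixon's test, of which chance gives about 1 in 20. These were *Adamts8* in EL sample 2 (416, next value 281), *Adamtsl1* in EH sample 2 (174, next value 131), *Adamts10* in EH sample 6 (35.7, next value 40.5) and *Mmp17* in EH sample 8 (28.7, next value 35.1). The other 3 were not well above background in their group, with *Mmp17* at 3.82 in PL sample 5, *Mmp2* at 9.46 in PL sample 2 and *Timp4* at 6.50 in PL sample 3.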

How the results depend on the processing

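With normexp background correction (offset 50), which adds a constant to every signal and so lowers the fold-change of dim probes, the counts for EH against EL were 0 higher and 0 lower. With it, 5 genes were called higher in PH than in PL, 0 higher and 0 lower in PL than in EL, 1 lower in PH than in EH, and 2 higher and 0 lower for the stage dependence. With dim signals raised to the detection level, 2 genes were called lower in PL than in EL, and with the median over the probes of a gene, 3. With that median, the difference of *Adamtsl1* for PH against EH reversed to -0.24 (adjusted p = 0.880, from 0.00146). When single samples were left out, 3 genes were called higher and 1 lower in EH, 7 to 8 higher and 1 lower in PH at P2, 1 to 2 higher and 4 to 7 lower in PL than in EL, 3 higher and 6 to 7 lower in PH than in EH, and 3 to 5 higher and 1 lower for the stage dependence. Without EL sample 6 or PL sample 5, 2 genes were called higher in PL than in EL. With the replicate number as a block, 3 genes were called higher and 1 lower in EH, 8 higher and 1 lower in PH, and 3 higher and 1 lower for the stage dependence, and apart from *Adamts15*, *Mmp15*, *Mmp17* and *Timp1* (given above) no named gene changed its side of the threshold. Pairing at P2 was not settled, since 3 of 4 same-numbered pairs deviated together. The difference of *Adamts8* at E15.5 missed the threshold without EL sample 3, 6 or 8 or EH sample 2 or 3, with an adjusted p of at most 0.0676. Stage dependence missed it in at least 1 setting for *Mmp11*, *Mmp15*, *Mmp17*, *Adamtsl4* and *Adamtsl1*, and passed it in 1 or more for *Adamts10*, *Mmp14*, *Timp1* and *Timp2*. The cause was not tested. In all, 1787 values kept their side of the threshold or, within a slide, stayed close to the main value. A further 92 lost their place past it, 21 gained one, 8 within a slide moved, and 1 changed sign with a p-value past the threshold. Changes of sign between values that both missed the threshold counted as kept, as for *Mmp2* in EH against EL, which ranged from -0.004 to 0.73. Genes not well above background have only bounds.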
